A study of Mus musculus with 216 samples.

Results

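The 12 RNA-seq libraries of young adrenal gland were compared with the 60 young libraries of heart, hypothalamus, kidney, lung and skeletal muscle across all genes. The adrenal members are the libraries that the labels give as adrenal and young, 12 of the 216 in the series. Mice were males of the C57B6/J-NIA strain, with no other genotype or treatment in the labels, and young ones were 6 months old. The series also holds aged (18 months) and old (27 months) mice. In each tissue and age group, 1 library was made every 4 h at 12 circadian times from 18 to 62, and each library pooled 2 samples. The labels do not say which mice gave which tissues, so p-values measure the spread between these pooled libraries. Levels are CPM, the usual scaling of counts to library size, where the size is the library's total count times its TMM factor (edgeR's trimmed mean of M-values). Poly(A) CPM depends on transcript length, so levels are compared between tissues and not between genes.

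The adrenal gland holds 2 endocrine organs in one. The cortex makes steroid hormones from cholesterol: aldosterone in the outer zona glomerulosa and, in mice, corticosterone in the zona fasciculata. Pituitary ACTH acts on the receptor Mc2r and drives cholesterol into mitochondria through Star, where the P450 enzyme Cyp11a1 starts the pathway. The medulla is made of chromaffin cells, which derive from the neural crest, make adrenaline from tyrosine and store it in granules with chromogranins. The gland lies in fat beside the kidney.

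Total counts per library, in megacounts, ran from 14.77 to 20.09 in adrenal (median 18.75) and from 9.438 to 29.42 over all 72 young libraries. The markers Cyp11b1, Star and Th were all measured in adrenal. The lowest adrenal library lay above all 60 other libraries for Cyp11b1 and Star, and 11 of 12 lay above them for Th. The exception was the library at 54. It held 1083 CPM of the 10 steroid synthesis genes summed, where the other 11 held 8859 to 15350, and 236 CPM of 16 secretory granule genes, where the others held 2585 to 6442. It also held the most of 6 white adipose genes, 9106 CPM against 2056 to 4157 in the other 11. The 5 liver genes summed to 7126 CPM at 26, 3547 at 58 and 1527 at 54, and to 17.7 to 310 in the other 9. The 5 lymphocyte genes reached 3066 CPM at 30, against 108 to 806 elsewhere in adrenal, and the 5 exocrine pancreas genes reached 215 CPM at 22, against 16.4 to 32.0. In bulk RNA, fewer cells of a type and less RNA per cell cannot be told apart.

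**Figure D1:**
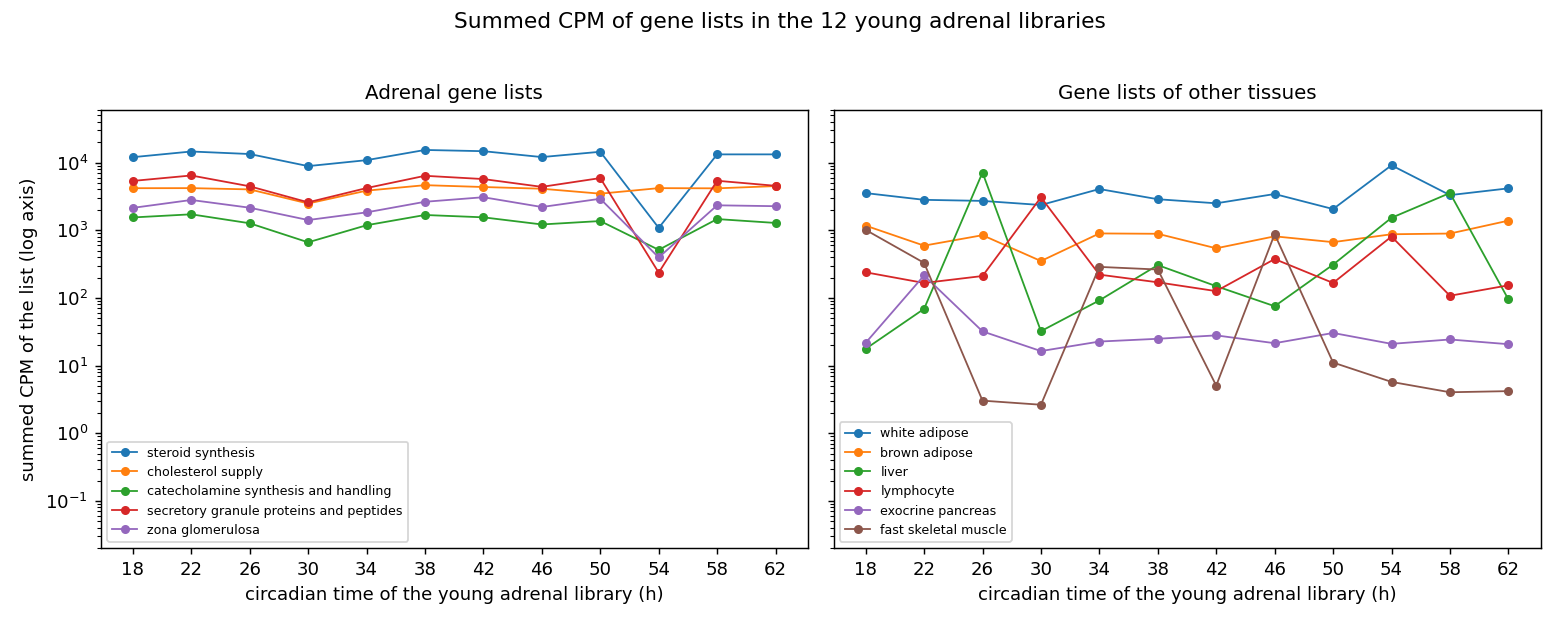
Summed CPM (log axis) of 5 adrenal gene lists (left) and 6 lists of other tissues (right) in each of the 12 young adrenal libraries, by circadian time; each point is 1 library. The steroid list drops to 1083 at 54, where white adipose is highest (9106), and the liver list peaks at 26 (7126) and 58 (3547).

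The first question was how many genes set young adrenal apart. Of 20682 genes tested, 1231 (5.95%) were higher in adrenal than in each of the 5 other tissues and 769 (3.72%) were lower than in each, by edgeR's quasi-likelihood test with a Benjamini-Hochberg adjusted p under 0.05 in all 5 comparisons. A set of 275 genes (1.33%) was higher than in every other tissue by a log2 difference of at least 2, which is 4-fold, and 22 genes (0.106%) were lower by as much. Against the unweighted mean of the 5 tissues, 9101 genes (44.0%) were higher and 7169 (34.7%) lower. All 12 adrenal libraries lay above all 60 others for 220 genes (1.06%) and below them for 110 (0.532%). The former number was 353 without the library at 54. Scaling by library totals in place of TMM shifted the median difference from the 5 tissues by 0.38 on the log2 scale, and then 2003 genes were higher and 207 lower than in every other tissue.

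Young adrenal differed from hypothalamus with 8081 genes higher (39.1%) and 9685 lower (46.8%), and from muscle with 10477 higher (50.7%) and 7366 lower (35.6%). Against heart 10294 were higher (49.8%) and 6663 lower (32.2%), against kidney 8935 (43.2%) and 7797 (37.7%), and against lung 8449 (40.9%) and 8063 (39.0%). For the 1231 genes higher than everywhere else, the tissue with the nearest level was lung for 359, kidney for 299, hypothalamus for 270, heart for 175 and muscle for 128. The same comparisons were fitted in the other ages, which hold other libraries. Of the 275 genes, all 253 that were tested in aged mice were higher in adrenal than in every other aged tissue (background 6.30%). In old mice 244 of 252 were (background 5.73%). Genes with low counts were filtered out separately at each age, and those of the 275 that failed are not in these shares. A gene nearly absent outside adrenal passes that filter only where adrenal is high. For such genes the call followed from the filter and adds no support. Of the 22 genes at least 4-fold lower, 15 of 22 were lower than everywhere in aged mice (background 4.12%) and 7 of 22 in old mice (background 3.93%).

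Steroid synthesis was the list with the widest gap. Of 10 genes 9 passed the filter on low counts, and 8 of these were higher in adrenal than in every other tissue (background 5.95%). For each gene the smallest of its 5 signed log2 differences was taken, which sets adrenal against the other tissue where the gene is highest. Its median over the list was 11, where the median over all genes tested was -1.30. Star (chr8:25806555-25815982, + strand, GRCm38), which carries cholesterol to the inner mitochondrial membrane, ran from 125 CPM at 54 through a median of 3019 to 4228. In no other library did it exceed 8.45. The 12 adrenal libraries thus lay above all others even with 54 included. The fitted difference of means from lung, the nearest tissue, was 9.49 ± 0.29 (SE) on the log2 scale (edgeR adjusted p = 1.52e-36).

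Cyp11a1 (chr9:58006411-58027023, + strand), the side-chain cleavage enzyme, had 67.9 CPM at 54, a median of 1867 and a highest value of 2343, against at most 1.77 elsewhere. Hsd3b1, a 3-beta-hydroxysteroid dehydrogenase, ran from 158 through 2315 to 2810 CPM, against at most 3.17 elsewhere. Cyp21a1 (chr17:34801348-34804561, - strand), the 21-hydroxylase, ran from 159 through 2400 to 2935 CPM, and the highest value elsewhere was 3.42 in heart. For each of these genes the lowest adrenal library was the one at 54, and it still stood above all 60 others. The pseudogene Cyp21a2-ps, a near-identical copy of Cyp21a1, had 162 ± 61.2 CPM (SD, n = 12), and how reads were shared between the copies is uncertain.

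The last steps of the pathway divide the cortex by zone. Cyp11b1 (chr15:74834125-74841643, - strand), which makes corticosterone, had 117 CPM at 54, a median of 1638 and a highest value of 2090. Cyp11b2 (chr15:74851010-74856318, - strand), aldosterone synthase, had 2.30 CPM at 54, a median of 166 and a highest value of 279. All of the adrenal libraries lay above every other library for both, where the highest values were 2.15 and 0.28 CPM in heart. The 12 heart libraries together held 80 counts of Cyp11b1 and 4 of Cyp11b2, and kidney, lung and muscle held no count of Cyp11b2. These paralogs lie side by side and are alike in sequence, so reads may be split between them.

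The electron carriers of the mitochondrial P450 enzymes were less restricted. Ferredoxin reductase, Fdxr, had 38.6 CPM at 54, a median of 561 and a highest value of 754, above all 60 others (log2 5.09 ± 0.19 from heart, edgeR adjusted p = 1.38e-32). Ferredoxin, Fdx1, ran from 48.0 through 334 to 587 CPM and differed from heart by 1.79 ± 0.15 (edgeR adjusted p = 5.30e-17). Its library at 54 lay among the other tissues, and the remaining 11 lay above them. Por, the reductase of the microsomal P450 enzymes, was the exception of the list. It had 286 ± 98.1 CPM in adrenal and 438 in kidney, a log2 difference of -0.66 ± 0.070 (edgeR adjusted p = 8.69e-13).

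Hsd3b6, a 3-beta-hydroxysteroid dehydrogenase linked to the zona glomerulosa, had too few counts at 54 (0.29 CPM) to pass the filter. Its median over all 12 libraries was 73.1 CPM and its highest value 106, and the 60 other libraries held at most 0.13. Without the library at 54, 259 more genes were tested, and 23 of these were at least 4-fold higher than in every other tissue. The share over all genes tested with that library was 1.33%. Hsd3b6 was among the 23. It passed the filter only through the adrenal libraries, where it is high, so its call followed from the filter and adds no support. With it, the steroid list without 54 had 9 of 10 genes higher than everywhere else.

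**Figure D2:**
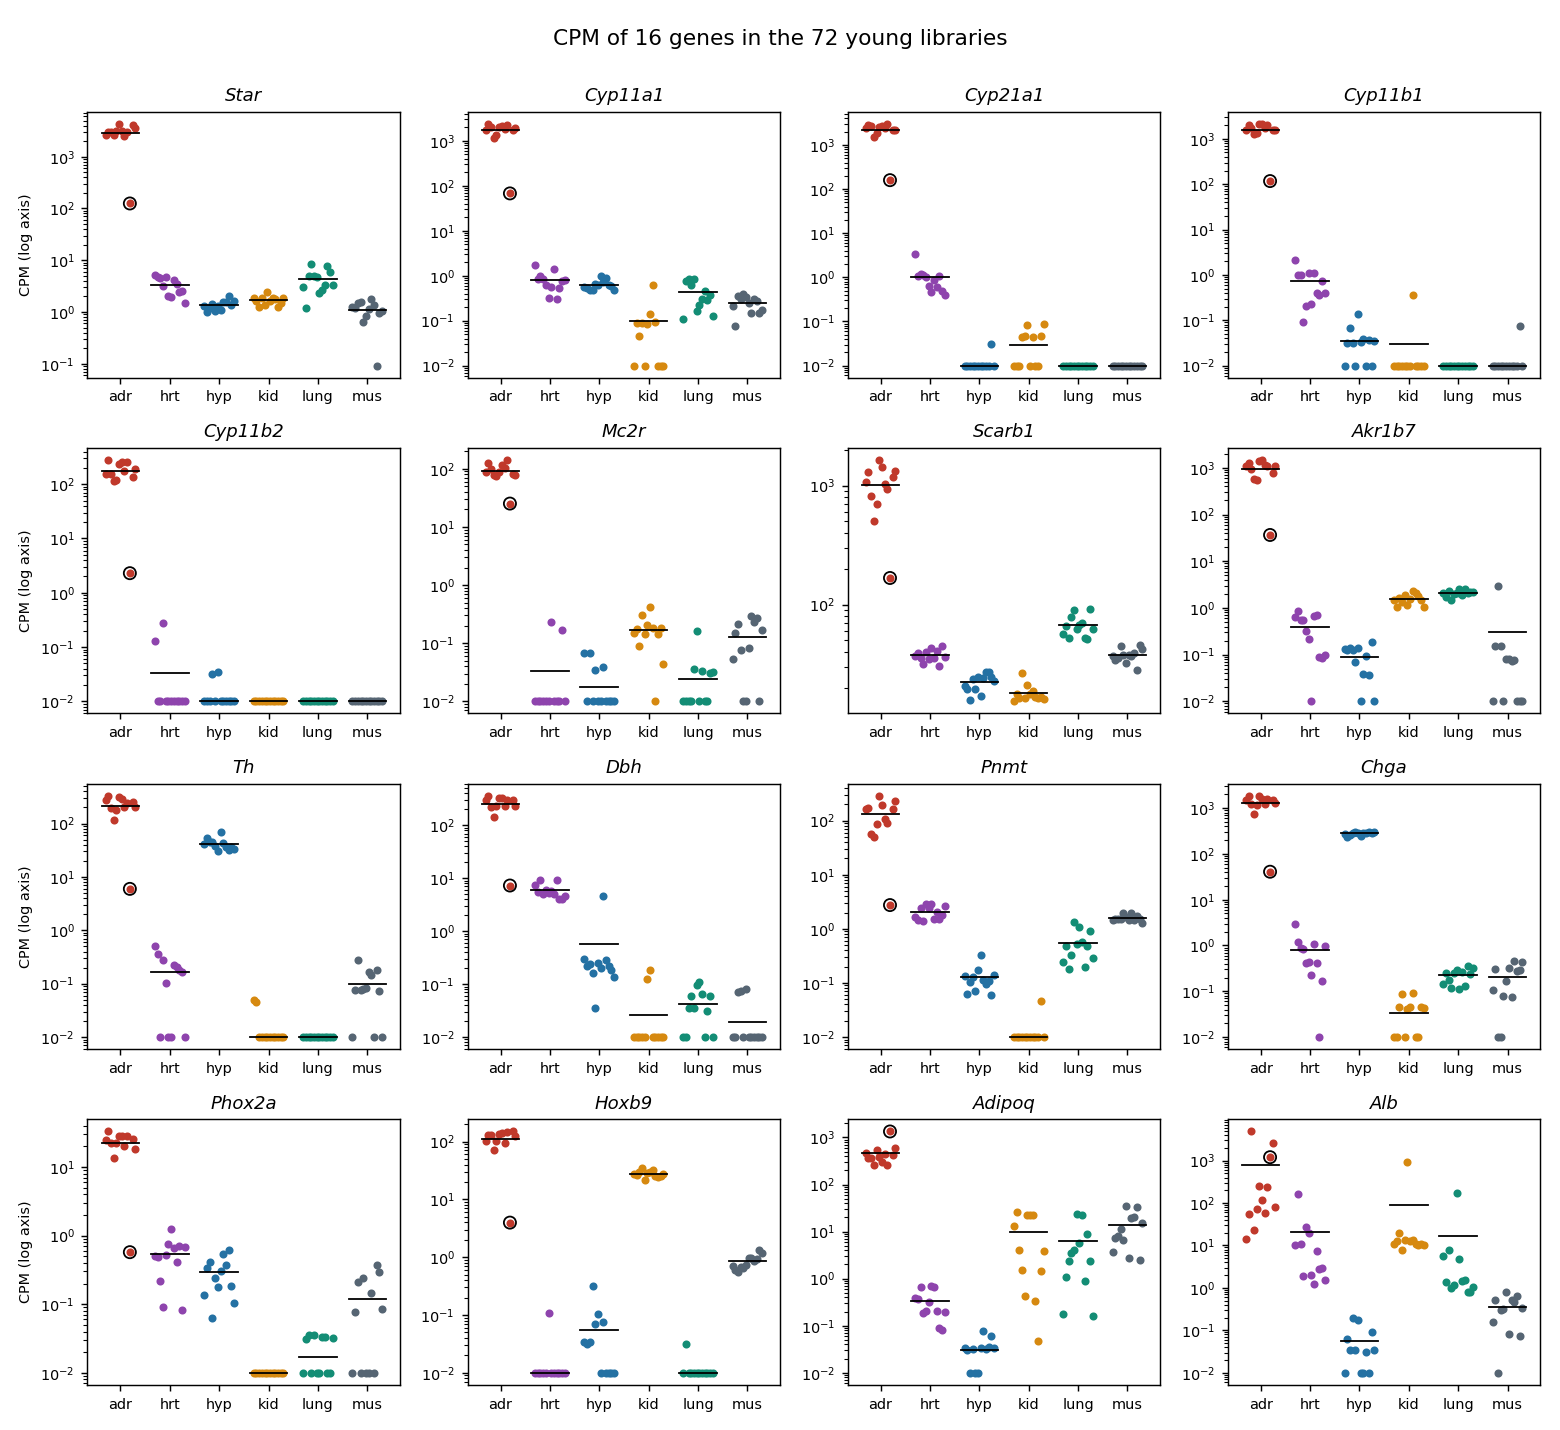
CPM (log axis, values under 0.01 drawn at 0.01) of 16 genes in the 72 young libraries: adr adrenal, hrt heart, hyp hypothalamus, kid kidney, mus muscle. Points are libraries in order of circadian time, lines are means over 12 libraries, and the black ring marks adrenal at 54, which is the lowest adrenal library for most genes shown (125 CPM for Star) and the highest for Adipoq (1341 CPM).

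Cholesterol for steroids can be taken up, released from stores or made anew, and the 20 genes of cholesterol supply followed no single pattern. In adrenal 8 were higher than in every other tissue and none was lower than in every one (backgrounds 5.95% and 3.72%), with a median smallest difference of -0.998. Scarb1, the receptor that takes up cholesterol esters from HDL, had 167 CPM at 54, a median of 1052 and a highest value of 1637. All 12 adrenal libraries lay above the highest other value (91.1 CPM), with a log2 difference of 3.83 ± 0.14 from lung (edgeR adjusted p = 2.90e-32).

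Soat1, which esterifies cholesterol for storage, ran from 43.2 CPM at 54 through 346 to 437 and was 1.12 ± 0.13 above lung on the log2 scale (edgeR adjusted p = 3.24e-11). Lipe, the hormone-sensitive lipase that frees cholesterol from its esters, ran the other way among libraries. It was highest at 54, with 1691 CPM, and its median was 685. Lipe is also a lipase of fat cells, and its difference from heart was 3.42 ± 0.14 with the library at 54 and 3.25 without it.

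Genes of new cholesterol synthesis were mostly not highest in adrenal. Hmgcs1, Idi1, Sqle and Cyp51 were each lower than in kidney. Dhcr7, which acts at the end of the pathway, was an exception. It had 33.9 CPM at 54, a median of 224 and a highest value of 375, and differed from hypothalamus by 2.49 ± 0.12 (edgeR adjusted p = 8.77e-27). Insig1, which holds back the sterol-sensing factor SREBP, was higher than everywhere by 1.32 ± 0.095 from hypothalamus (edgeR adjusted p = 1.44e-19). Lss and Abca1 also passed, with differences of 0.51 and 0.73 from the nearest tissue.

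Of 12 genes for the ACTH receptor, its partners and cortical transcription factors, 3 were higher than in every other tissue and 1 was lower (backgrounds 5.95% and 3.72%). Mc2r, the ACTH receptor, had 25.2 CPM at 54, a median of 88.3 and a highest value of 141, and no other library exceeded 0.42 (log2 9.01 ± 0.25 from kidney, edgeR adjusted p = 1.40e-39). Mrap, which brings Mc2r to the cell surface, ran from 69.0 through 115 to 154 CPM. It was highest at 54, where Mc2r was lowest and the sum of white adipose genes highest, and the part of fat in its level was not tested. Its difference from heart was 3.10 ± 0.29 (edgeR adjusted p = 6.68e-15). Nr5a1, the orphan receptor SF-1 that specifies steroid-making cells, ran from 7.81 CPM at 54 through 178 to 234. Hypothalamus held 10.6 CPM on average, the adrenal library at 54 lay below it, and the other 11 lay above all 60 (log2 3.96 ± 0.25, edgeR adjusted p = 3.68e-18).

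The other factors of the list were not particular to adrenal. Nr0b1 (DAX-1), which acts against SF-1, had 1.64 ± 0.78 CPM in adrenal and 1.40 in hypothalamus, a difference of 0.22 ± 0.25 (edgeR adjusted p = 0.408). Gata4 had 3.04 CPM in adrenal against 150 in heart, and Gata6 48.9 against 66.4, so Gata6 was the GATA factor nearer to the heart level (log2 -0.45 ± 0.11, edgeR adjusted p = 2.76e-04). Cited2, a transcriptional partner needed for adrenal formation in the embryo, had 29.3 to 45.8 CPM in adrenal and was lower than in all 5 tissues. Its difference was -0.58 ± 0.070 from hypothalamus, the nearest, and -1.36 ± 0.072 from muscle, the furthest (edgeR adjusted p = 5.84e-11 and 1.05e-25), and -0.22 from the nearest under library totals. Inha, the inhibin alpha subunit, was 0.41 ± 0.20 above hypothalamus (edgeR adjusted p = 0.0533), and passed the test without the library at 54 and under scaling by library totals.

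Of 12 genes of the zona glomerulosa, the aldosterone-making zone, 8 were higher in adrenal than in every other tissue and none lower than in every one (backgrounds 5.95% and 3.72%), with a median smallest difference of 0.93. The potassium channel Kcnk9 (TASK-3) had 5.51 CPM at 54, a median of 438 and a highest value of 712, and the highest other value was 156 in hypothalamus. Its difference was 1.71 ± 0.28 (edgeR adjusted p = 1.57e-06). The related channel Kcnk3 (TASK-1) ran from 162 through 817 to 1006 CPM, against 428 on average in heart (log2 0.83 ± 0.14, edgeR adjusted p = 6.09e-07). For both channels the 11 libraries other than 54 lay above all 60. Cacna1h, a T-type calcium channel, ran from 6.31 through 202 to 360 CPM, and differed from hypothalamus by 1.95 ± 0.22 (edgeR adjusted p = 5.35e-12).

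The angiotensin II receptors of the zone were both higher than everywhere else. Agtr1a ran from 27.1 CPM at 54 through 181 to 290, and was 1.59 ± 0.13 above heart (edgeR adjusted p = 4.27e-17). Agtr1b, the product of the second type 1 receptor gene of rodents, ran from 0.057 through 10.1 to 16.9 CPM, against at most 0.73 elsewhere (log2 4.55 ± 0.34 from hypothalamus, edgeR adjusted p = 2.82e-17). Signals that keep the zone were also higher: Wnt4, Shh and the WNT target Axin2 were higher than everywhere by 0.72 ± 0.20, 1.23 ± 0.23 and 1.03 ± 0.12. Dab2 was lower than in kidney (327 against 602 CPM), Rnf43 was lower than in lung, and Vsnl1, a calcium sensor, was lower than in hypothalamus (25 against 447 CPM). Lef1 did not pass against hypothalamus (log2 0.29 ± 0.26, edgeR adjusted p = 0.288) and reached 39.7 CPM at 30, where the lymphocyte genes were highest, against a median of 7.96.

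The X-zone is an inner layer of the young mouse cortex that regresses in males at puberty. Its marker Akr1c18 had 0.043 to 0.75 CPM in adrenal and 15.2 in kidney, and Pik3c2g had 0 to 1.03 CPM in adrenal and 11.6 in kidney. Both were lower than in kidney, by -5.56 ± 0.42 and -6.43 ± 0.34 (edgeR adjusted p = 2.73e-17 and 1.11e-25). The aldose reductase-like gene Akr1b7, an ACTH-responsive enzyme of the fasciculata, stood at the other end, with 36.5 CPM at 54, a median of 1078 and a highest value of 1469. No other library exceeded 3.01 (log2 8.72 ± 0.28 from lung, edgeR adjusted p = 1.70e-35). Akr1b8 differed from lung by 0.99 ± 0.13 (edgeR adjusted p = 4.66e-10), and 11 of 12 adrenal libraries lay above all others.

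Of the 15 genes with the largest difference from the nearest tissue, among those with at least 10 CPM in adrenal, 10 belong to the gene lists described here. The other 5 belong to none, and Cyp21a2-ps, given above, is one of them. Akr1cl, an aldo-keto reductase, had 19.2 CPM at 54, a median of 389 and a highest value of 497, against at most 0.55 elsewhere. Mgarp, a protein of mitochondria in steroid-making cells, ran from 10.6 through 393 to 512 CPM against at most 1.15. Pla2g2f, a secreted phospholipase A2, ran from 1.09 through 53.4 to 73.9 CPM against at most 0.51. The unnamed gene Gm28382 ran from 1.15 through 33.3 to 44.2 CPM against at most 0.18. In each of the 4, all 12 adrenal libraries lay above all 60 others, and the lowest was the one at 54.

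Catecholamines are made from tyrosine by Th, Ddc, Dbh and Pnmt in turn. Of 11 genes of synthesis and handling, 5 were higher in adrenal than in every other tissue (background 5.95%), none was lower than in every one, and the median smallest difference was -0.010. Th (chr7:142892752-142931128, - strand), the rate-limiting hydroxylase, had 5.97 CPM at 54, a median of 226 and a highest value of 331. Hypothalamus, with its dopamine neurons, held 42.1 CPM on average and 69.3 at most, so the library at 54 lay below it and the other 11 above. The difference was 2.31 ± 0.23 (edgeR adjusted p = 4.49e-12).

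Dbh, which turns dopamine into noradrenaline, had 7.29 CPM at 54, a median of 265 and a highest value of 362, against 5.98 on average in heart (log2 5.35 ± 0.31, edgeR adjusted p = 8.92e-22). Pnmt (chr11:98386450-98388181, + strand), which makes adrenaline, ran from 2.76 through 137 to 289 CPM, against 2.06 on average in heart (log2 5.80 ± 0.29, edgeR adjusted p = 1.20e-24). For both, the 11 libraries other than 54 lay above all 60. Gch1, which makes the cofactor of Th, was 1.21 ± 0.14 above lung (edgeR adjusted p = 3.29e-11), and Cyb561, the granule electron carrier that serves Dbh, 0.51 ± 0.14 (edgeR adjusted p = 6.01e-04).

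Other steps of the pathway were shared with other tissues. Ddc, the decarboxylase, had 47.6 ± 18.1 CPM in adrenal, 84.4 in kidney and 67.1 in hypothalamus, and was lower than in kidney by -0.80 ± 0.17 (edgeR adjusted p = 2.18e-05). The vesicular transporter Slc18a1 (VMAT1), the chromaffin form, had 36.4 ± 14.9 CPM in adrenal but 343 in kidney (log2 -3.28 ± 0.20, edgeR adjusted p = 2.18e-22). Slc18a2 (VMAT2) had 29.2 CPM against 49.5 in hypothalamus, and the noradrenaline transporter Slc6a2 had 41.2 against 84.3 in lung. The degrading enzyme Maoa did not differ past the threshold from hypothalamus, with a difference of -0.081 ± 0.072 (edgeR adjusted p = 0.291).

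Proteins of the secretory granule were higher in adrenal than in most tissues other than hypothalamus. All 16 genes of the list were higher in adrenal than in heart, kidney and lung, and 15 were higher than in muscle, where the backgrounds were 49.8%, 43.2%, 40.9% and 50.7%. Against hypothalamus 3 were higher and 12 lower (backgrounds 39.1% and 46.8%), with a median difference of -2.47. The 3 were the chromogranins Chga and Chgb and the peptide Npy. Chga had 40.9 CPM at 54, a median of 1404 and a highest value of 1865, and Chgb had 39.3, 1645 and 2144. Hypothalamus held 280 and 327 CPM on average. Summed over the list, the adrenal library at 54 lay below every heart and muscle library (236 against at least 328 and 562 CPM). The 11 libraries other than 54 lay above all 60 for both, with differences of 2.17 ± 0.21 and 2.18 ± 0.22 (edgeR adjusted p = 5.59e-14 and 7.92e-14). Npy ran from 3.90 through 89.1 to 125 CPM against 16.4 on average in hypothalamus (log2 2.27 ± 0.21, edgeR adjusted p = 6.48e-14).

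Scg2, the secretogranin II gene, was the 1 gene with no call against hypothalamus, with 834 ± 334 CPM in adrenal and 870 there (log2 -0.11 ± 0.22, edgeR adjusted p = 0.628). The prohormone convertase Pcsk1 had 43.6 CPM in adrenal and 85.7 in hypothalamus, whereas Pcsk2 had 6.81 and 265. The difference was thus -1.07 ± 0.19 for Pcsk1 and -5.33 ± 0.18 for Pcsk2. Vgf, a neuropeptide precursor, gave the lowest value of the list (3.11 CPM against 226, log2 -6.29 ± 0.19, edgeR adjusted p = 2.72e-33). The synaptic release genes Snap25, Syt1 and Syt4 had 39.0, 36.6 and 25.3 CPM in adrenal, against 944, 673 and 335. Penk, the enkephalin precursor, had 39.8 CPM in adrenal against 113.

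Of 14 chromaffin transcription factors and receptors, 5 were higher than in every other tissue (background 5.95%), with a median smallest difference of -0.24. Phox2a, a homeobox factor of noradrenergic neurons, ran from 0.57 through 23.7 to 33.0 CPM, and no other library held over 1.26. Hand1 ran from 0.57 through 11.7 to 17.9 CPM, and the 60 other libraries held 2 counts of it, both in heart. Hand2, its relative, had 46.1 CPM in adrenal and 69.9 in heart. The nicotinic receptor subunits Chrna3 and Chrnb4, through which splanchnic nerves drive the medulla, were higher than in hypothalamus by 2.07 ± 0.26 and 3.08 ± 0.26 (edgeR adjusted p = 7.02e-09 and 4.32e-14).

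Other members were shared with 1 or more tissues. Gata2 was lower than in lung (45.2 against 105 CPM), Gata3 did not differ past the threshold from kidney (log2 0.12 ± 0.20, edgeR adjusted p = 0.598), and Insm1 not from hypothalamus (0.25 ± 0.26, edgeR adjusted p = 0.359). Isl1 was lower than in hypothalamus (8.54 against 31.5 CPM). Ret, the GDNF receptor, was highest at 54 with 45.6 CPM, where the other chromaffin genes were low, and its median was 13.4. Adcyap1r1, the PACAP receptor, gave the lowest value of the list, with 68.1 CPM against 329 in hypothalamus (log2 -2.29 ± 0.11, edgeR adjusted p = 2.20e-27).

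**Figure D3:**
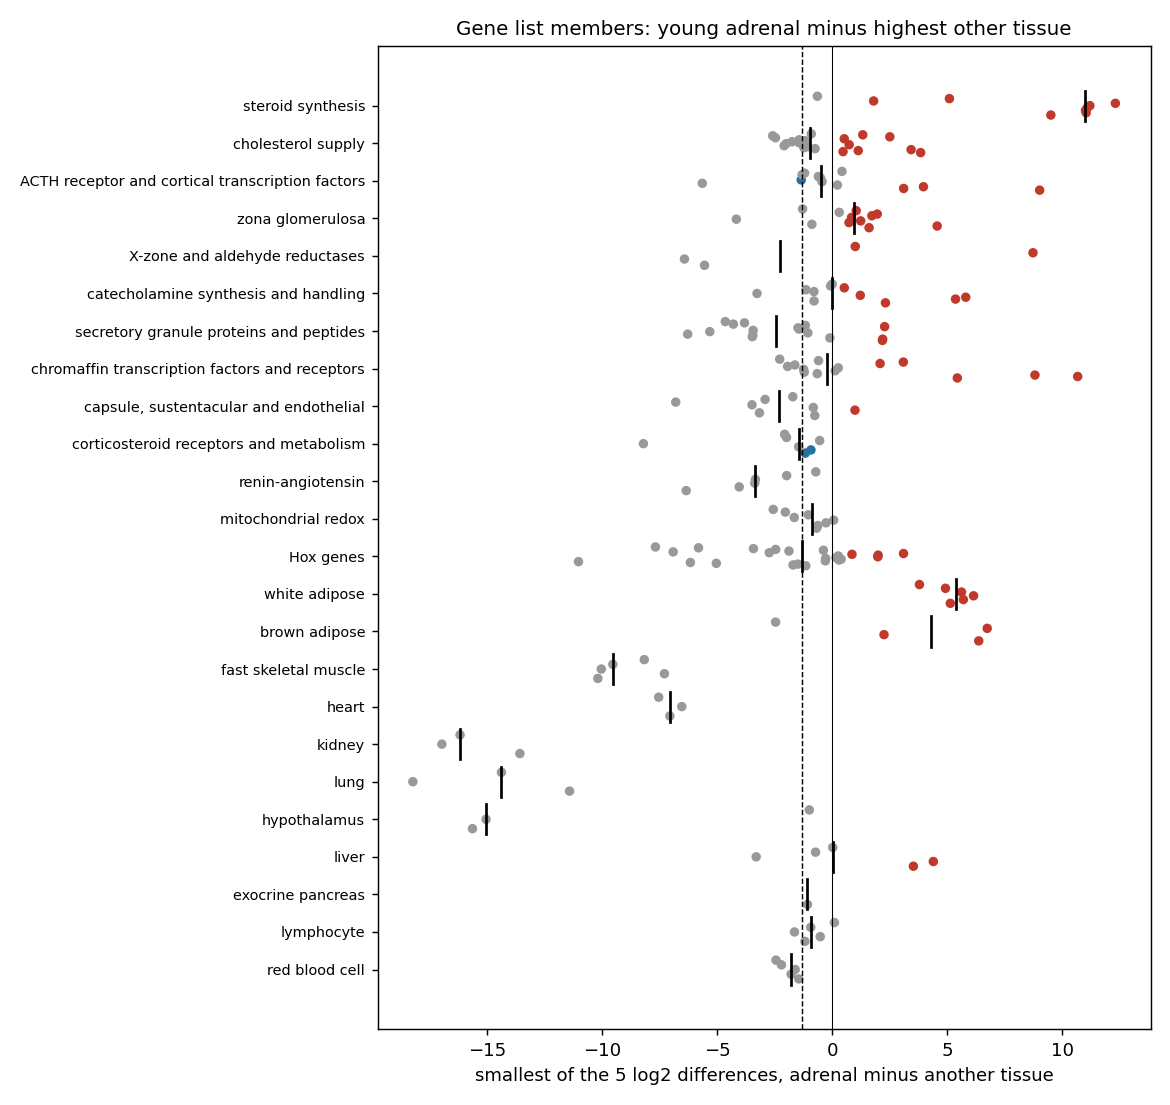
Smallest of the 5 log2 differences (adrenal minus another tissue) for each tested gene of 24 lists; red, higher than every other tissue; blue, lower than every other; grey, neither. Black bars are list medians and the dashed line is the median over all genes tested (-1.30); steroid synthesis (median 11) and white adipose (5.37) lie furthest to the right.

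The promoters of genes in these lists were read for 2 motifs, since the factors that bind them are central to the gland. AAGGTCA, searched on both strands, is the core site bound by SF-1 and other orphan receptors, and TGACGTCA, which reads the same on both strands, is the full cAMP response element bound by CREB. The promoter table (RefSeq, GRCm38.p6) gives 250 bases before and 50 after each start, and holds 32851 promoters of 27025 genes. Of these AAGGTCA is in 4.72% and TGACGTCA in 1.79%. The promoters below carry a motif, shown in capitals, and belong to a cortical or medullary gene with a large difference from the other tissues, or in the case of Scg2 to a granule gene shared with hypothalamus.
Akr1b7 (chr6:34412112-34412411, + strand): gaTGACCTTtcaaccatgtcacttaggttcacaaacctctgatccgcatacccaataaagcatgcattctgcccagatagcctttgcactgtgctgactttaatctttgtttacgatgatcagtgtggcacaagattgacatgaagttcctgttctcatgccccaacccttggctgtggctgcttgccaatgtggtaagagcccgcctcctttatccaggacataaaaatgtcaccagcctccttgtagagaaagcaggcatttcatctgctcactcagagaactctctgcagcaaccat
Dhcr7 (chr7:143822917-143823216, + strand): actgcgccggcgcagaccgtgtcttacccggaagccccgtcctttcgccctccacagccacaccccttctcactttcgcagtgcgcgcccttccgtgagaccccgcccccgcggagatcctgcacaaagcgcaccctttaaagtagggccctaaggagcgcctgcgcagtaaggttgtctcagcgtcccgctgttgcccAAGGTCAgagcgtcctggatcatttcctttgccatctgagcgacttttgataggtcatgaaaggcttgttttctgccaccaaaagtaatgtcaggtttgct
Th (chr7:142899946-142900245, - strand): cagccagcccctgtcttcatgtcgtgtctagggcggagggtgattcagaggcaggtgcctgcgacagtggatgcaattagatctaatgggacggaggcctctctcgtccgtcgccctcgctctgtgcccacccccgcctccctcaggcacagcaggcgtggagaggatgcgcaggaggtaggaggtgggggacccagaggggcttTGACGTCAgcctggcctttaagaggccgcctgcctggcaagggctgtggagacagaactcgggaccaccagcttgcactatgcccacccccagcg
Chgb (chr2:132781392-132781691, + strand): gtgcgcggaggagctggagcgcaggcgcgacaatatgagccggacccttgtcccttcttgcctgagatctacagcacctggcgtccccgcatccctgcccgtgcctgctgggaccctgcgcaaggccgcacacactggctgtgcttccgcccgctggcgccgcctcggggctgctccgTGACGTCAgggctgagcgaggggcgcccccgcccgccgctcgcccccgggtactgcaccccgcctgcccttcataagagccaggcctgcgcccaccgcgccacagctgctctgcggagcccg
Scg2 (chr1:79439977-79440276, - strand): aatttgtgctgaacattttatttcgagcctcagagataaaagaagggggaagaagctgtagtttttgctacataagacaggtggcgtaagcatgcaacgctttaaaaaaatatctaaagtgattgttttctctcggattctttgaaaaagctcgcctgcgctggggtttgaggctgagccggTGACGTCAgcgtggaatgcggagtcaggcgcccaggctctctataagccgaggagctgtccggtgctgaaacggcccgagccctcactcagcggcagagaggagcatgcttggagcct

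Akr1b7 carries the core site on the other strand, so it reads TGACCTT, 248 bases before the start, and Dhcr7 carries it 51 bases before. TGACGTCA begins 45 bases before the start of Th, 72 before that of Chgb and 68 before that of Scg2. Of 26 medulla list genes with a promoter in the table, 5 held TGACGTCA, which were these 3 with Pcsk1 (78 bases before) and Slc18a2 (4 bases before). Of 42 cortex list genes 1 held it, Prkar1a. AAGGTCA was in 3 of the 42 cortex list genes and 1 of the 26 medulla list genes. The 7 promoters of the steroid synthesis list that the table holds belong to 6 of its 10 genes and had neither motif. Star, Cyp11b1 and Cyp21a1 have no promoter there and were not searched. These are matches of letters in a window and not tested sites.

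Over the 275 genes at least 4-fold higher in adrenal than elsewhere, 187 had promoters in the table. AAGGTCA was in 19 of their 231 promoters, or 8.23%, where the genes tested had 3.75%. Of these 19, 11 belonged to genes that were over 10 times the median at 26, described below, where 11 of 62 promoters held the motif (17.7%). Among genes that were low at 54 it was in 3 of 66 (4.55%), between the 3.75% of the genes tested and the 4.72% of all promoters. The share in the whole set thus rested mostly on the genes that peaked at 26. TGACGTCA was in 3 of the 231 promoters (1.30%), where the genes tested had 2.61%.

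Of 8 genes of the capsule, sustentacular cells and vessels, 1 was higher than in every other tissue (background 5.95%), the WNT agonist Rspo3 of the capsule. It ran from 1.32 CPM at 54 through 27.1 to 41.6, and differed from hypothalamus by 0.98 ± 0.23 (edgeR adjusted p = 8.26e-05). Gli1, a hedgehog target in capsular cells, had 7.94 CPM against 13.5 in hypothalamus. The glial genes Sox10 and S100b differed from hypothalamus by -3.50 and -2.93 on the log2 scale, and Plvap, a protein of fenestrated endothelium, was lower than in lung (93.6 against 310 CPM).

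The receptors of the gland's own steroids were low. Nr3c1, the glucocorticoid receptor, had 69.7 to 154 CPM in adrenal, with a median of 95.2, and was lower than in each of the 5 tissues. The means elsewhere ran from 117 in hypothalamus to 218 in lung and muscle, and the difference was -0.28 ± 0.065 from hypothalamus and -1.18 ± 0.065 from lung (edgeR adjusted p = 6.67e-05 and 2.38e-24). Nr3c2, the mineralocorticoid receptor, had 18.3 ± 2.92 CPM, against 22.8 in lung to 34.9 in hypothalamus, and was also lower than in each. Under scaling by library totals neither was lower in all 5 (4 and 3 tissues remained). Hsd11b2, which inactivates corticosterone in mineralocorticoid targets, had 0.47 CPM in adrenal and 140 in kidney, and Hsd11b1, which regenerates it, had 74.8 CPM against 207. Of the target genes of the glucocorticoid receptor, Fkbp5 was higher than in 4 tissues and lower than in kidney, whereas Tsc22d3 and Sgk1 were each higher than in 1 tissue and lower than in 3.

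Of 6 genes of the renin-angiotensin list none was higher or lower in adrenal than in every other tissue, and with backgrounds of 5.95% and 3.72% so few genes tell nothing about the list. Ren1, renin, had 0.057 to 1.09 CPM in adrenal and 46.1 in kidney. Ace had 63.3 CPM against 664 in lung, and Agt, angiotensinogen, 23.1 ± 26.7 against 310 in hypothalamus. None of the 8 mitochondrial redox genes was either, at the same backgrounds, and 2 were higher than in every other tissue under library totals. Steroid hydroxylation leaks electrons, and Prdx3 and Txn2, which clear mitochondrial peroxide, had 273 ± 49.1 and 223 ± 46.2 CPM in adrenal. These values were lower than in heart and muscle, from heart (437 and 341 CPM) by -0.69 ± 0.061 and -0.64 ± 0.057, and higher than in 3 other tissues. Txnrd2 was lower than in heart by -0.28 ± 0.049 (edgeR adjusted p = 9.67e-07), and under library totals this value was 0.29. Sulfiredoxin, Srxn1, did not differ past the threshold from hypothalamus (0.056 ± 0.085, edgeR adjusted p = 0.540).

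Hox genes keep in adult tissue a record of position along the body axis, with higher group numbers further back. Of 24 Hox genes, 4 were higher in adrenal than in every other tissue (Hoxb9, Hoxc5, Hoxc6 and Hoxc8) and none was lower than in every one, with a median smallest difference of -1.34, against backgrounds of 5.95% and 3.72%. The number higher was 7 without the libraries at 26, 30, 54 and 58, and 7 under library totals. All but 2 were higher than in heart and in hypothalamus (22 of 24, backgrounds 49.8% and 39.1%). Against kidney 7 were higher and 12 lower, and against muscle 13 and 10.

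Hoxb9 (chr11:96271457-96276595, + strand) had 3.96 CPM at 54, a median of 126 and a highest value of 149. Kidney held 27.7 CPM on average and at most 34.8, so the 11 other libraries lay above all 60 (log2 1.97 ± 0.24, edgeR adjusted p = 5.52e-10). Hoxc8 ran the other way among the libraries. It was highest at 54, with 131 CPM, against a median of 51.4, and all 12 libraries lay above the highest other value of 8.62 (log2 3.09 ± 0.15 from kidney, edgeR adjusted p = 1.54e-22). Hoxc5 and Hoxc6 differed from the nearest tissue by 1.99 ± 0.20 and 0.85 ± 0.13 (edgeR adjusted p = 7.90e-13 and 2.03e-08).

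Several genes of the posterior groups stood lower in adrenal than in kidney and muscle. Hoxa9, Hoxa10, Hoxc10 and Hoxd10 had 1.96, 0.82, 1.10 and 0.20 CPM in adrenal. In kidney they had 63.4, 50.4, 15.4 and 11.5 CPM, and in muscle 25.8, 40.3, 126 and 9.53. Each was lower than in both tissues. Hoxa10 and Hoxc10 had their highest adrenal value at 54, 4.82 and 3.85 CPM. Hoxa11 and Hoxd11 had no count in any adrenal library, which allows a level of up to 0.011 CPM for counting error alone, and had 2.83 and 1.21 CPM in kidney. Hoxb7 and Hoxb8, of the middle of cluster B, did not differ past the threshold from kidney (-0.30 ± 0.16 and 0.16 ± 0.19, edgeR adjusted p = 0.0787 and 0.443).

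**Figure D4:**
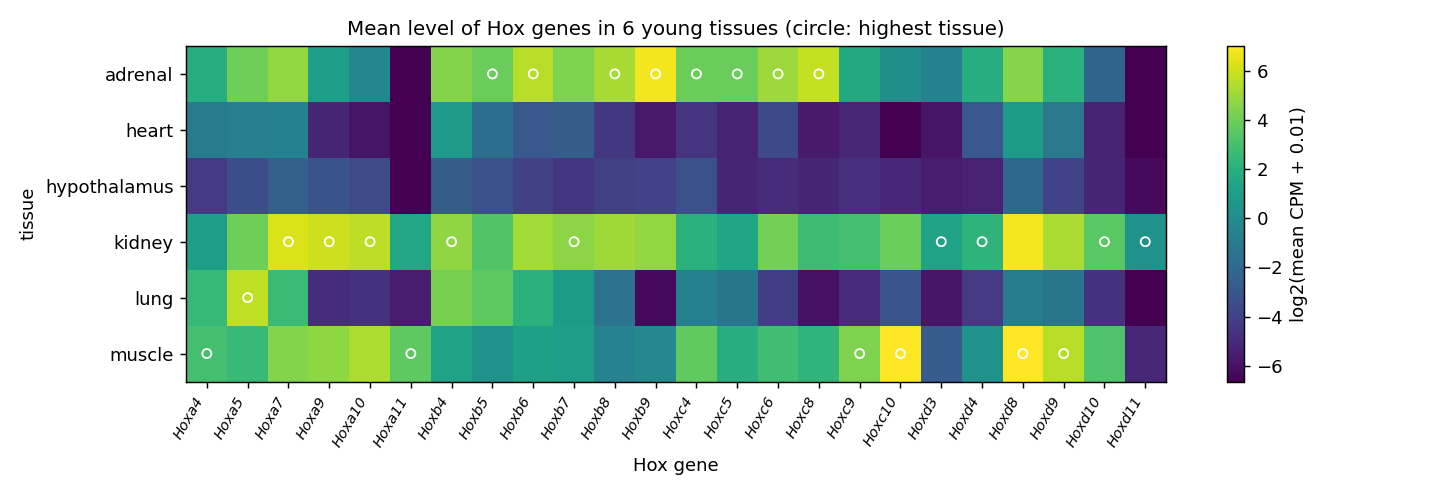
Mean level of 24 Hox genes, as log2 of the mean CPM plus 0.01, in 6 young tissues (12 libraries each); a white circle marks the tissue with the highest mean. Adrenal is highest for Hoxb9 (110 CPM) and Hoxc8 (57.0 CPM), while Hoxa11 and Hoxd11 have no count there.

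Genes of fat were present in every adrenal library. All 6 white adipose genes were higher than in every other tissue (background 5.95%), with a median smallest difference of 5.37, and for all 6 the 12 adrenal libraries lay above all 60 others. Adipoq, the adipokine adiponectin, had 255 CPM in the lowest library, a median of 407 and 1341 at 54, against at most 34.6 elsewhere. Plin1, the lipid droplet coat, ran from 447 through 808 to 1966 CPM and Lep, leptin, from 32.9 through 366 to 1489. The list's sum was 2056 to 9106 CPM in adrenal, 0.98 to 7.60 in heart, 0.25 to 0.80 in hypothalamus, 2.51 to 197 in kidney, 14.2 to 183 in lung and 24 to 268 in muscle. Of 4 brown adipose genes 3 were higher than everywhere: Ucp1, the uncoupling protein, ran from 187 through 397 to 811 CPM, with at most 21.7 elsewhere. Cox8b was lower than in heart, which uses it as well.

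Genes of other tissues were high in some adrenal libraries and not in others. Alb, albumin, had 13.9 CPM in the lowest library, a median of 99.4 and 4863 at 26, and Apoa1 ran from 1.22 through 10.2 to 690. Both were higher than in every other tissue, by 3.52 ± 0.78 and 4.39 ± 0.88 from kidney (edgeR adjusted p = 5.11e-05 and 1.33e-05), and by 1.84 and 2.45 without 26, 30, 54 and 58. The liver list summed to 386 to 1634 CPM in kidney and to at most 211 in any library of the remaining 4 tissues. The kidney library at 38 stood apart, with 922 CPM of Alb against 7.95 to 20.2 in the other kidney libraries. The lymphocyte list had no gene higher than everywhere, and its B cell gene Cd79a reached 178 CPM at 30, with a median of 2.83. Of the pancreas list 1 of 5 genes was tested, and Prss2, Cpa1, Ctrb1 and Pnlip, at medians of 0.13 to 0.19 CPM, had 28.2 to 55.3 CPM at 22.

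Fast skeletal muscle genes summed to 2.64 to 1012 CPM in adrenal, against at least 49616 in muscle. Their sum was 1012 CPM at 18, 876 at 46 and 263 to 329 at 22, 34 and 38. In the remaining adrenal libraries it was at most 11.1. Heart genes summed to 24 to 642 CPM in adrenal, against at least 19348 in heart. Sums for kidney, lung and hypothalamus genes were at most 6.17, 2.04 and 4.77 CPM in adrenal, and Sftpb and Avp had no count there. Red blood cell genes summed to 258 to 1181 CPM, and all 5 were lower than in heart and lung. The part that RNA of fat, liver, lymph tissue, pancreas or muscle had in the differences of other genes was not tested.

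The 275 genes at least 4-fold higher than everywhere else were then described by their level in single libraries, with limits chosen after the values were seen. At 54, 77 of them stood under 0.25 times the median of the other 11 libraries, 175 stood above that median and 23 between. The 77 include 23 genes of the cortex and medulla lists. Outside the lists, the 6 of them with the highest mean were Abcb1b, Srd5a2, Akr1cl, Mgarp, Prss35 and Klhdc8a. Abcb1b, a multidrug transporter, had 67.3 CPM at 54, a median of 564 and a highest value of 838, against at most 24.5 elsewhere. Srd5a2, a steroid 5-alpha reductase, ran from 7.40 through 401 to 489 CPM, against at most 37.9 in kidney. Prss35, a serine protease, ran from 6.95 through 366 to 510 CPM.

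A second pattern was a peak at 26 and 58. Of the 275 genes 68 exceeded 10 times the median of the other 11 libraries at 26, and 65 of these did so at 58 as well, while none did at 22 or 30. The highest outside the lists were Serpina3k, Mup3, Ahsg, Serpina1e, Cps1 and H2-Q10. H2-Q10 exceeded 10 times at 26 only, at 10.3 times there and 3.38 times at 58. The brown adipose gene Elovl3 did likewise, at 10.2 and 1.48 times. Ahsg, fetuin A, and Serpina1e, an antitrypsin, are proteins that the liver secretes into plasma. Serpina3k ran from 2.63 CPM through a median of 14.7 to 1053, and Mup3, a major urinary protein, from 2.32 through 10.1 to 735. Cps1, the first enzyme of the urea cycle, ran from 0.22 through 5.36 to 682. Without 26, 30, 54 and 58, 39 of the 68 remained higher than in every other tissue, and 29 by at least 4-fold. The liver list summed to 7126 CPM at 26 and 3547 at 58, and its part in these 68 genes was not tested.

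The remaining large group was 108 genes that stood above the median at 54 and did not peak at 26. It includes all 6 white adipose genes, and outside the lists its highest members were Scd1, Fasn, Acaca, Tkt, Thrsp and Slc1a5, of which the first 3 are enzymes of fatty acid synthesis. Scd1, the delta-9 desaturase, ran from 4950 CPM through 10730 to 17553, against at most 2087 elsewhere (log2 2.99 ± 0.26 from lung, edgeR adjusted p = 7.30e-16). Fasn, fatty acid synthase, ran from 3350 through 7414 to 10337 CPM, and all 12 adrenal libraries lay above the highest other value of 691. Acaca, acetyl-CoA carboxylase, ran from 666 through 1305 to 1986 CPM against at most 150. Without 26, 30, 54 and 58 all 108 remained higher than in every other tissue, and 97 by at least 4-fold. At 54 Fasn and Acaca stood at 1.15 and 1.19 times the median of the other 11 libraries and Scd1 at 1.66 times. The 6 white adipose genes stood at 1.83 to 4.20 times there. Of the brown adipose genes at least 4-fold higher than everywhere else, Ucp1, Cidea and Elovl3 stood at 1.32, 1.09 and 0.81 times. The part of fat in this group was not tested.

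**Figure D5:**
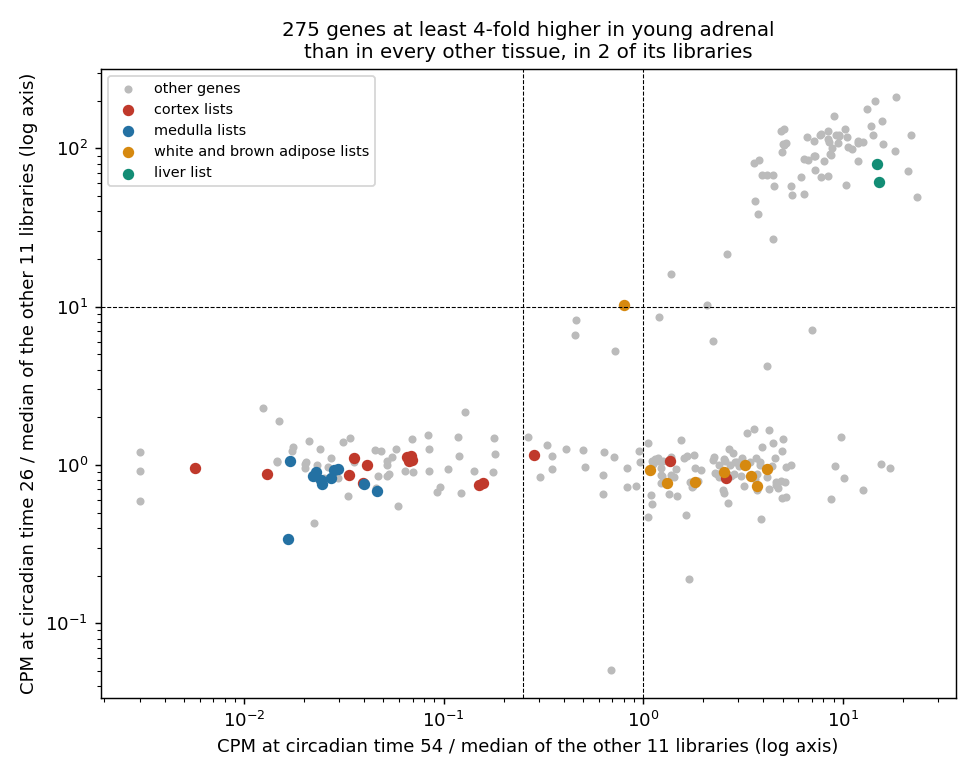
For each of the 275 genes at least 4-fold higher in young adrenal than in every other tissue, CPM at circadian time 54 (x) and 26 (y), each over the median of the other 11 adrenal libraries (log axes, ratios under 0.003 drawn there). Genes of the cortex and medulla lists lie mostly at the left (77 genes under 0.25 at 54), adipose genes mostly right of 1, and the 68 genes above 10 at 26 include the liver genes.

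Genes low in adrenal were fewer and their differences smaller. By the same ordering, the 10 genes furthest below every other tissue, among those with at least 10 CPM in each of the 5, were Atp1b1, Hbegf, Mfap3l, Car14, Ank3, Clip4, Pitpnc1, Sms, Cystm1 and Myh14. Atp1b1, the beta-1 subunit of the sodium pump, had 25.8 CPM at 54, a median of 62.5 and a highest value of 80.9. The other tissues held 353 CPM on average in lung, 370 in heart, 372 in muscle, 1033 in hypothalamus and 2041 in kidney, and the difference was -2.58 ± 0.11 from lung, the nearest, and -5.12 ± 0.13 from kidney (edgeR adjusted p = 1.62e-29 and 5.37e-42). Hbegf, a growth factor of the EGF family, ran from 2.44 through 3.63 to 5.15 CPM, against 14.95 in hypothalamus to 50.8 in lung. Sms, spermine synthase, had 14.3 ± 3.94 CPM against 40.02 in kidney to 320 in muscle. Ank3, the ankyrin of excitable and epithelial membranes, had 5.51 CPM at 54 and 27.98 at most, against 71.6 in lung to 325 in hypothalamus.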

How the data were processed

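Poly(A) RNA-seq libraries of 6 tissues at 3 ages were deposited as a table of raw read counts per gene, with 55376 gene lines and 216 columns, 1 for each library. The authors aligned reads with HISAT2 to GRCm38 (mm10) and counted them with HTSeq, per the submitters' processing notes; for tool versions and for strand in the counting, the entry is not given in the sources used here. A CPM table was not used here. Columns were matched to libraries by the time, age and tissue in their names.

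The counts of the 72 young libraries were fitted with edgeR 4.0.16 in R 4.3.3 (filterByExpr by tissue with a minimum count of 10, TMM factors, robust quasi-likelihood fit), with a mean and a 24 h cosine and sine for each tissue, which leaves 54 residual degrees of freedom. Adrenal was tested against the unweighted mean of the other tissues and against each of them, with Benjamini-Hochberg adjustment over all 20682 genes at 0.05. A gene was called higher or lower than in every other tissue when all 5 tests passed with 1 sign. No usable statistic was had for 137 genes in the comparison with the mean. The 12 circadian times served as replicates, and no pair of adrenal libraries agreed within sampling noise (lowest chi-square per degree of freedom 9.88). Zero counts were given a limit of 3 counts over 12 libraries, for counting error only.

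In simulated counts of 17277 genes, all genes changed by 1 or 2 on the log2 scale were called against the mean of the 5 tissues, as were 0.0527% of unchanged genes. All 5 tests passed for 90% of genes raised and 82% of genes lowered by 1, and for 100% at 2. The simulated counts had a common spread for all genes, no difference among the 5 other tissues and no library that stood apart. The real libraries differ in these respects, so the rates hold for the simulated setting only. DESeq2 1.42.0, other scalings, filters, thresholds and models, and the omission of libraries were alternatives. Tables and figures were made in Python 3.11.15 with pandas 2.3.3 and matplotlib 3.10.9.

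The genes named are the members of 24 gene lists, the 15 genes furthest above every other tissue with at least 10 CPM in adrenal, and the 10 furthest below every other with at least 10 CPM in each. The groups of the 275 genes by library, and the 6 genes named for each, were chosen after their values were seen. The comparison and the gene lists were chosen with earlier results of these data known. Values of some list members are not reported here.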

Additional observations from a re-analysis of the deposited data

How the results depend on the processing

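Scaling by library totals gave 12715 genes higher and 3727 lower than the mean of the 5 tissues, 2003 higher and 207 lower than every other tissue, 10 at least 4-fold lower, and 359 and 31 genes whose adrenal libraries lay above or below all others. A minimum change of 2-fold left 3621 and 1219 genes against the mean and 411 and 47 against every tissue, and an adjusted p under 0.001 left 502 lower than every tissue. With 2 groups of 12 and 60 libraries, 3116 genes were higher and 7736 lower, so the balance turned; there the spread includes that between tissues. Without the adrenal library at 54, 353 genes lay above all others. Without 26, 30, 54 and 58, an omission chosen after seeing the data, the numbers above and below were 506 and 212. Among promoters of genes higher at any size, 5.17% held AAGGTCA. With DESeq2, 1249 genes were higher and 779 lower than every other tissue, and with a minimum count of 3, also chosen after seeing the data, 1448 and 746.

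With circadian time as a replicate block, 8987 genes were higher and 7360 lower than the mean, 1190 and 758 than every tissue, and 268 and 21 by at least 4-fold, and it changed no call of the 225 single genes followed. Deviations of same-time libraries of adrenal and another tissue correlated at -0.24 to 0.49 over 60 pairs, with 21 over 0.1. Since not every pair passed 0.1, the times were not taken to pair samples, though 22 correlated best with their own time, a hint from the data that same-time libraries share deviations.

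No single gene of the 225 went from higher than every other tissue to lower than every other, or back. Calls against a single tissue did reverse under library totals, as for Stard3. With TMM factors Stard3 was lower than in 4 tissues, and under library totals it was higher than in 3 and lower than in 2. Its highest log2 difference from another tissue was 0.027 with TMM factors and 0.42 under library totals. Library totals lost the lower calls of Nr3c1 and Nr3c2 and added calls for 9 genes, among them Gata3, Inha and Txnrd2. A minimum change of 2-fold lost 16 single calls, among them Kcnk3, Soat1, Cited2 and Hoxc6, and an adjusted p under 0.001 lost Wnt4. Without 54, Inha, Insm1 and Hoxb6 were added. The fit with no filter on low counts was not possible and was not run. Depth limits genes of a few counts in other tissues, such as Cyp11b2, Hand1 and Hsd3b6, whose differences are given as levels.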
